A study of Drosophila melanogaster with 2 samples.

Results

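CG12605-eGFP peaks that crowd together along the chromosomes of whole Drosophila melanogaster pupae are described here as chains. A chain is a run of peak summits, the points of highest signal, in which every neighbour lies at most 5000 bp from the next, and chains with at least 6 summits were kept. By this rule 119 chains were found, and they hold 946 of 6776 conservative peaks, or 14.0% of the list. The members were chosen by their positions in that list, so their density and positions are a description and were not tested. Chromatin was immunoprecipitated with an anti-GFP antibody from transgenic flies of the strain CG12605-GFP, pupae aged 1 day, which carry an insertion targeting CG12605 and express it fused to eGFP. The labels give 2 biological replicates of this 1 group, with no treatment, no second genotype and no second stage. They do not say which promoter drives the fusion or whether an untagged copy of the gene remains. Whole animals were used, so which cells carry a given peak was not measured.

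The protein belongs by its zinc fingers to the Snail and Scratch group, whose members are known as DNA-binding repressors that read E-boxes, short sequences with a central core shared with basic helix-loop-helix factors. In ChIP-seq of many Drosophila transcription factors, peaks can gather at regulatory genes that are controlled by several enhancers spread over introns and flanking DNA. The early pupa is the stage at which pulses of the steroid hormone ecdysone drive metamorphosis, through nuclear receptors and other early genes. In a peak list, the irreproducible discovery rate (IDR) says how reproducible a peak's rank is when peaks are called more than once. The signal value of a peak is the authors' own deposited number. Its scale is not stated in the labels or file headers, and it serves only to describe and rank peaks.

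The summit sequences of 9 member peaks show the range of what lies under these chains. They were read from the RefSeq Release 6 assembly, which has dm6 coordinates, from 50 bp before to 50 bp after the summit on the plus strand, 5′ to 3′. The first pair are members with the Scratch E-box, the sequence CAACAGGTG searched on both strands and printed in capitals as it reads on the plus strand. It holds the Snail core CACCTG on its other strand, so the 2 motifs overlap. The other 7 are the strongest peaks of chains described in the text, and the capitals there mark runs of at least 6 A or at least 6 T (AAAAAA on either strand) or the TATA-box sequence TATAAA on either strand. None of these 7 windows holds either E-box sequence.
PAPLA1 chain, chr2L:8159123-8159223: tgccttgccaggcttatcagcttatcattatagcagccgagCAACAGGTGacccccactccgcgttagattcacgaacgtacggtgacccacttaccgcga
bantam chain, chr3L:608517-608617: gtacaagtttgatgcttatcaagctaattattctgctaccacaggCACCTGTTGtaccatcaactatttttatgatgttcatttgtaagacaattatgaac
mir-279 chain, chr3R:29214390-29214490: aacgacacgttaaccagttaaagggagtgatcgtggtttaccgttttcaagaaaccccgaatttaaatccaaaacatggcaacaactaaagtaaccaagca
Btk chain, chr2L:8277810-8277910: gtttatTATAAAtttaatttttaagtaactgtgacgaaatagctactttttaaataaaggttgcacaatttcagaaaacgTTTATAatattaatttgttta
Hsp27 chain, chr3L:9383857-9383957: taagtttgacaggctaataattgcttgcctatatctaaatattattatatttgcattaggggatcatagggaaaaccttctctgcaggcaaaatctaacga
CHES-1-like chain, chrX:7706976-7707076: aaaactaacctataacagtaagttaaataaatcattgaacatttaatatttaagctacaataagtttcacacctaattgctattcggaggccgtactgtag
bantam chain, strongest peak, chr3L:627066-627166: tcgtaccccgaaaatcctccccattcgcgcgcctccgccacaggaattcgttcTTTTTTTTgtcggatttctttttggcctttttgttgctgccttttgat
Mnt chain, chrX:3680038-3680138: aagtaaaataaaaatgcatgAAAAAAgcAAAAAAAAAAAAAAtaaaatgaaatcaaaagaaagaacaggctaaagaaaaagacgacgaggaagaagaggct
Eip75B chain, chr3L:18009151-18009251: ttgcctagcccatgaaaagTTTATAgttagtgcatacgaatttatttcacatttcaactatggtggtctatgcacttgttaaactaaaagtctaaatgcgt

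Chain size fell off steeply. Of all chains on the main arms, 1999 were single summits with no neighbour within the limit, 797 held 2 summits, 344 held 3, 185 held 4 and 93 held 5. Among those kept, 49 held 6 summits, 24 held 7, 15 held 8, 11 held 9 and 20 held 10 or more, up to 20 summits. The chains just outside the threshold, with 5 summits, had a median span of 6328 bp, and those just inside it, with 6, had 9048 bp. Their median signal values were 82.2 and 89.5. From first to last summit the kept chains spanned between 3329 and 46031 bp, with a median of 10379 bp, and together they covered 1396 kb, or 1.04% of the arms' bases. Neighbouring summits within them lay 1345 bp apart in the median, with quartiles of 682.5 and 2427 bp.

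**Figure D1:**
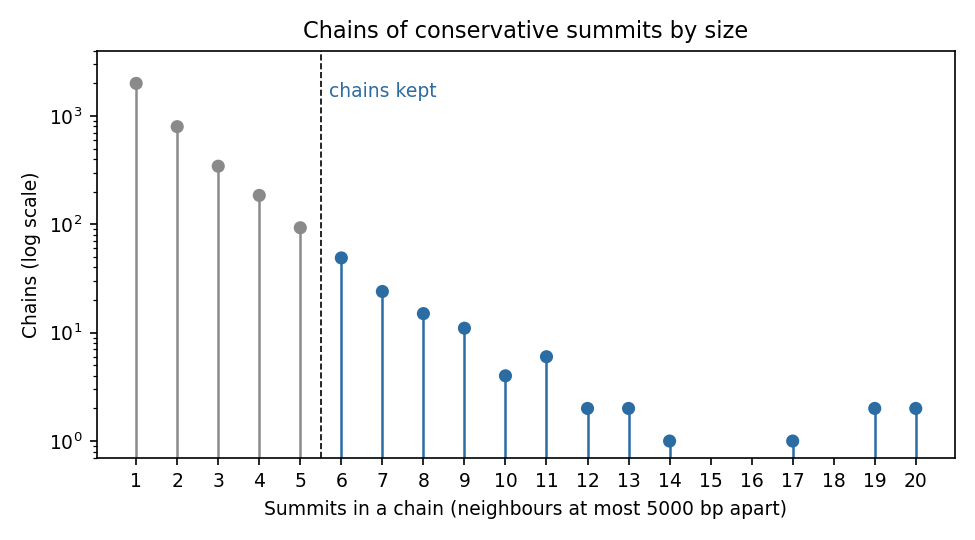
Number of chains (log axis) against the number of summits in a chain, over all conservative peaks on the main arms. The dashed line marks the threshold, and to its right the 119 chains kept run from 49 with 6 summits to 2 with 20.

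Chains were spread unevenly over the arms. X held 31 chains with 260 members, or 1.32 chains per Mb, and 3L held 32 chains with 259 members, or 1.14 per Mb. The right arm of chromosome 2 held 21 and the left arm 19, at 0.83 and 0.808 per Mb. The right arm of chromosome 3 had the lowest density of these, with 16 chains at 0.499 per Mb. Of its 1493 peaks 7.57% were members, against 19.6% of the 1327 on X. Chromosome 4 had 3 peaks and no chain.

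The lead gene of a chain is taken as the protein-coding gene whose body holds more of its summits than any other gene does, the longer gene where 2 tie. Of the 119 chains 109 had a lead gene, and in 83 it held over 50% of the chain's summits. The chain with the highest summed signal among those with 20 summits lay on X from 7691691 to 7710667, at CHES-1-like (FBgn0029504, minus strand, 7682338 to 7709385), which encodes a forkhead transcription factor. Of its 20 summits 18 lay in the gene's body and 17 in introns. The weakest of them had a signal of 28.5 and the strongest 493, around a median of 84.2. The strongest, at 7707026, had a signal of 257 in replicate 1 and 248 in replicate 2. The next strongest, at 7698403, had 327 in the conservative list, 167 in replicate 1 and 188 in replicate 2. Both replicates thus ranked the same pair of intronic peaks above a run of weaker ones.

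The other chain with 20 summits lay mostly outside protein-coding genes, at the locus of bantam (mir-ban), a microRNA known to promote growth and to block cell death. It ran on 3L from 602692 to 648723, the longest span of all, and 17 of its summits lay outside protein-coding genes. The annotated mir-ban hairpin, on the plus strand from 642208 to 642288, had its nearest member 1449 bp away. The strongest peak, at 627116, had a signal of 265, with 99.1 in replicate 1 and 162 in replicate 2. It lay 20547 bp from the nearest protein-coding start site, that of Reg-2. A second strong peak at 636641 had 247, with 115.2 in replicate 1 and 129 in replicate 2. The window at 608567 is one of those printed with the Scratch E-box, and its signal was lower, at 53.3, with 34.9 in replicate 1 and 34.0 in replicate 2.

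The chain of schnurri (shn, FBgn0003396), a zinc finger cofactor of Dpp signalling, held 19 summits, all of them inside the gene. It ran on 2R from 11173648 to 11204674 within a gene of 58.3 kb. Its strongest peak, at a signal of 463, lay 155 bp upstream of a start site of the gene, with 210 in replicate 1 and 259 in replicate 2. Another of 443 lay 1122 bp upstream of a start site, with 195 and 233 in the same order. The chain of Mnt (FBgn0023215), the bHLH partner of Max that opposes Myc, also held 19 summits, on X from 3667380 to 3695500, with 18 in introns. Its strongest peak had a signal of 392, with 151 in replicate 1 and 238 in replicate 2, and lay 8147 bp from a start site. In both genes the strong peaks were spread along the introns and not at 1 start site.

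**Figure D2:**
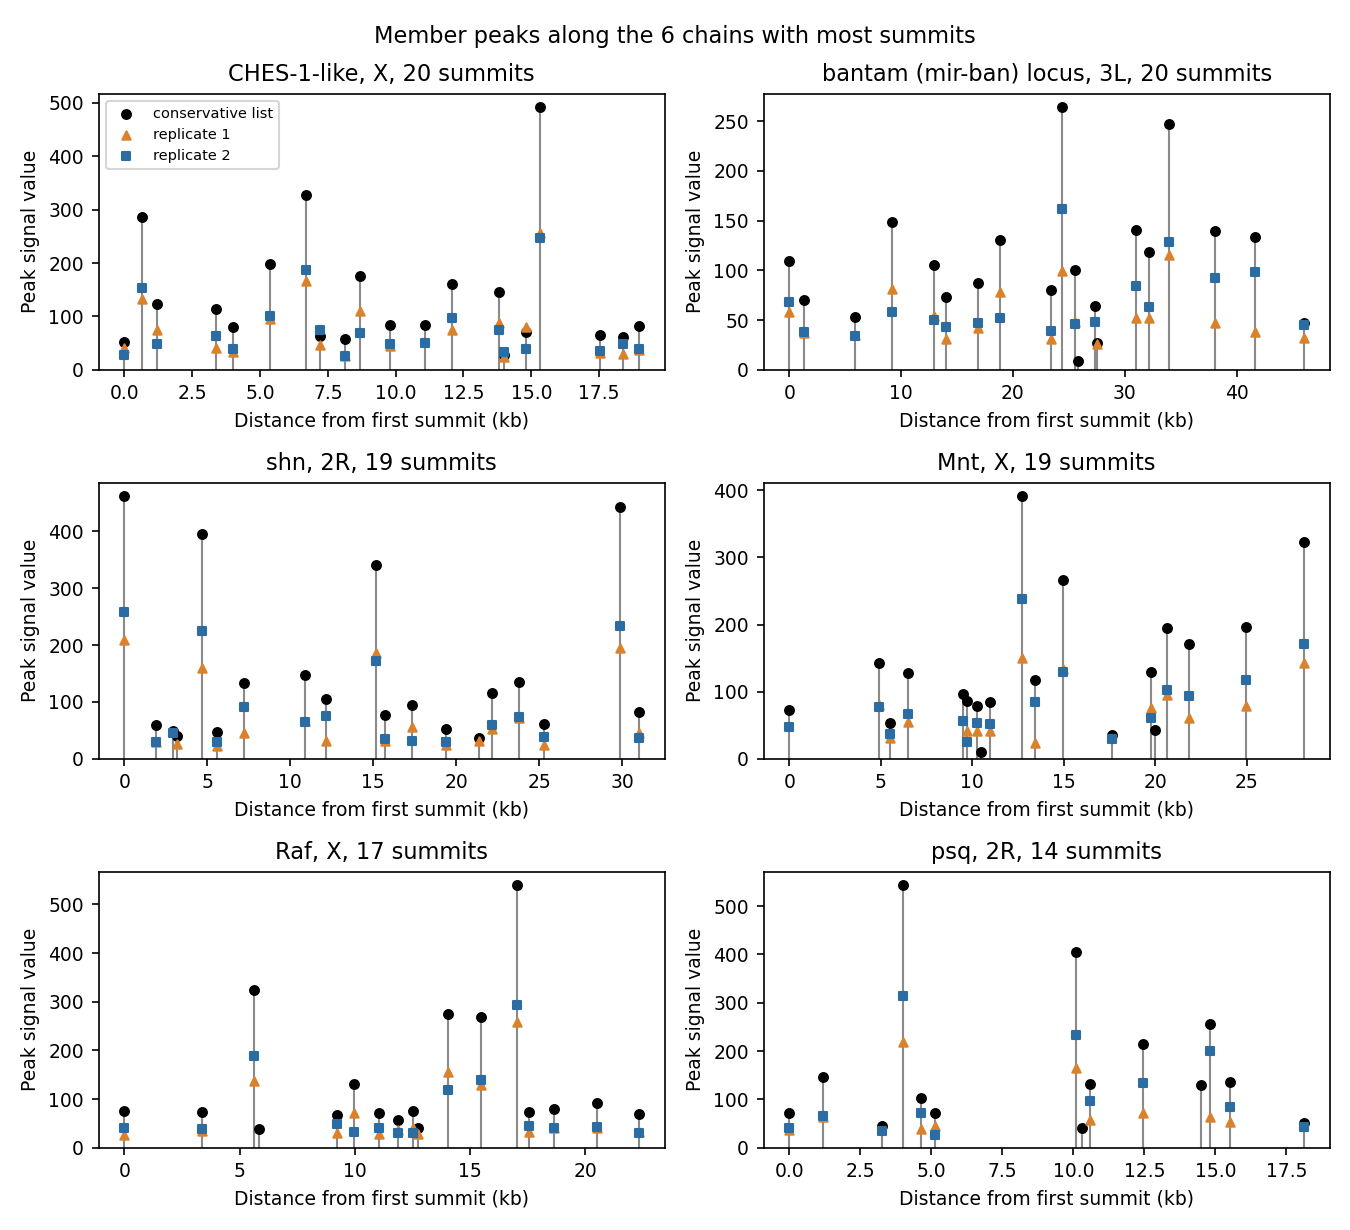
Peak signal value of each member along the 6 chains with most summits, against its distance from the first summit in kb. Black points are the conservative list, orange triangles replicate 1 and blue squares replicate 2 where a summit of that replicate lay within 100 bp, and in each panel a few tall peaks, such as that of 493 at CHES-1-like, stand among many low ones.

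Next in size was a chain of 17 summits on X, shared by CG2865 and Raf, the kinase between Ras and MEK. Of these, 10 lay in Raf, and its strongest peak, 5244 bp downstream of the start site of Raf, had a signal of 540, with 259 in replicate 1 and 293 in replicate 2. Pipsqueak (psq), a BTB-domain protein that binds GAGAG sequences, followed with 14 summits and a strongest peak of 544, which had 219 in replicate 1 and 315 in replicate 2. The chain of scribbler (sbb), which encodes a nuclear co-repressor, held 13 summits, all in introns and none within 1000 bp of a start site, with signals up to 323. Eip75B, a nuclear receptor induced by ecdysone, also had 13 summits, over 26.3 kb of a gene of 114 kb. Its strongest peak had a signal of 373, with 117 in replicate 1 and 244 in replicate 2, and lay 9380 bp from a start site. The others of that chain were lower, the next at 134.

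Of the remaining chains with 10 or more summits, 2 had 12 summits. One lay at CG6163 on 3L, with a single summit in that gene, and the other spanned hng3 and emc, which encodes an Id-like HLH protein that holds back proneural factors. Chains of 11 summits lay at CG4004, CG3726, CG13898, Diap1, tou and a group of 7 genes on 2L, led by pes with 3 of the summits and including Wwox and Glyat. Diap1 encodes an inhibitor of caspases and held 9 of its chain's 11 summits, the strongest at 388, with 177 in replicate 1 and 183 in replicate 2. Toutatis (tou), a chromatin regulator, held all 11 of its own, with an even run of signals between 70.4 and 151. In the CG4004 chain the strongest peak, at 668, lay outside protein-coding genes, 5072 bp from the start site of CG4004, with 363 in replicate 1 and 296 in replicate 2. Chains of 10 summits lay at drongo, at the HMG-box genes HmgD and HmgZ, at lola and at eff, a ubiquitin-conjugating enzyme.

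The other chains, with 6 to 9 summits, fell at genes of many kinds. Of the 11 with 9 summits, 10 had a lead gene, namely mamo, pum, Syp, Tet, Lsd-2, chm, skd, ckn, CG1677 and CG12010. Of the 15 with 8, the lead genes were ph-p, Trl, foxo, Atat, Tlk in 2 chains, CG32645, vri, sbb, stx, Moe, AGO1, osp and Eip74EF, and 1 had none. Among these, ph-p encodes a Polycomb protein, chm a histone acetyltransferase, skd a Mediator subunit, vri a clock factor, Moe the actin linker moesin and AGO1 the Argonaute of the microRNA pathway. The 24 with 7 were led by Rtnl1, Act5C, PRAS40, Tpr2, bowl, spri, scrib, MFS14, CG2162, ptc, simj, tai, Myc, CG10365, aop, mnb, CG15365, pyd, Tet, Sdc and mam, and 3 had no lead gene.

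Of the 49 chains with 6 summits 45 had a lead gene, and some of these are grouped here by known role. Kinase genes were Btk, sgg, msn and Tlk, of which sgg acts in Wingless signalling. Enzyme and lipid genes were PyK, which encodes pyruvate kinase, bmm, which encodes a lipase, fabp, which encodes a fatty acid binding protein, and whd, which encodes a carnitine palmitoyltransferase. The bromodomain gene fs(1)h and the remodeller gene kis encode chromatin regulators. Transcription factor genes were ftz-f1 in 2 chains, grh, CrebA, E2f1 and sima, the hypoxia factor. Signalling genes were Egfr and sog, a Dpp antagonist, and kibra and ex belong to the Hippo pathway. RNA-binding and translational regulators were brat and Imp. The others were led by eEF1gamma, CG4456, Ptpmeg2, pdgy, CG46385, kirre, EDTP, Reck, tna, Pits, rdx, Prp16, PAPLA1, CG13894, Pde11, Tob, CG5445, CG9328, CG5151, Roc2, ERp60, CG2991 and Samuel, and 4 had none.

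Some genes held more than 1 chain. Tlk, which encodes a Tousled-like kinase, had 3 chains with 22 summits, 19 of them in its 69.8 kb. Scribbler had 2 chains with 21 summits, Tet, a dioxygenase gene, had 2 with 16, and ftz-f1, a nuclear receptor of the prepupal ecdysone response, had 2 with 12. All summits of these last 3 genes' chains lay inside the gene.

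The 4 strongest members lay in chains of 6 or 8 summits. The highest signal, 982, belonged to a chain of 6 on 3R from 29207492 to 29220178 that spans mir-279 and mir-996, a pair of related microRNAs. That peak, at 29214440, had 422 in replicate 1 and 547 in replicate 2. The mir-279 hairpin lies on the plus strand from 29215585 to 29215684, and 1 member lay 333 bp from it. The second highest, 807, lay 158 bp upstream of a start site of Btk, a Tec-family kinase, with 405 in replicate 1 and 389 in replicate 2. A member of 720 lay 156 bp upstream of Hsp27, with 307 in replicate 1 and 386 in replicate 2. It closed a chain of 6 in the small heat shock gene cluster on 3L, in which all 6 summits lay within 1000 bp of a start site. The next were a peak of 692 at ph-p, with 321 and 336 in replicates 1 and 2, and the peak of 668 at CG4004. In all, 120 members, or 12.7%, were above the 90th percentile of the conservative peaks, a signal of 213.2, against 9.57% of the other peaks. At least 1 was held by 74 chains, a count for which no background was worked out.

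Beside bantam and the mir-279 pair, 3 further chains spanned microRNA genes. The chain of 9 at chm spanned mir-275 and mir-305, whose nearest members lay 474 and 529 bp away. A chain at Tlk spanned mir-4962, with a member summit at 3777419 inside the hairpin, which runs from 3777382 to 3777505, and the chain at mam spanned mir-4978, with one at 935 bp. At the Enhancer of split complex, a set of Notch target genes, a chain of 6 summits over 3.81 kb lay between E(spl)m2-BFM and E(spl)m3-HLH and overlapped no protein-coding gene. Its signals were between 9.03 and 114.

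Within a chain the peaks were unequal. The strongest member had a signal 2.66 times the chain's median in the median chain, with a range of 1.13 to 8.42. In 37 chains this member was at most 1000 bp from the start of a protein-coding gene, and in 82 it was farther away. Over all members the median signal was 87.3, with quartiles of 62.6 and 135, against 85.3 for the other 5830 conservative peaks and 87.9 for the 1999 peaks with no neighbour. Low signals were nearly all in close pairs. In 68 chains, 95 pairs of neighbouring summits lay under 300 bp apart, with a median signal of 84.0 for the stronger peak and 20.2 for the weaker. Of the 67 members with a signal under 30, 66 were the weaker of such a pair. Of the 95 weaker peaks 26 had a summit of replicate 1 within 100 bp and 21 one of replicate 2. When summits under 500 bp apart were merged into 1, 84 of the 119 chains remained, including all 20 with most summits.

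The replicates differed in how many chains their own lists gave. The same rule gave 26 chains in the thresholded list of replicate 1, which holds 4022 peaks, and 79 in that of replicate 2, which holds 5394. Of the 119 chains 23, or 19.3%, overlapped a chain of replicate 1, and 57, or 47.9%, one of replicate 2. In the other direction, 92.3% of the chains of replicate 1 and 72.2% of those of replicate 2 overlapped a conservative chain. There were 19 chains found in both lists, led by or lying at CHES-1-like, bantam, shn, Mnt, Raf, psq, sbb, CG6163, CG4004, Diap1, tou, drongo, mamo, Syp, ph-p, Tlk, mir-279, ex and msn. Of the 20 chains with 10 or more summits, 12 were among them. Another 58 chains overlapped one in neither list. The conservative list was made from both replicates, so these overlaps are no independent support for it, and the depth of each library is unknown.

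Peak by peak, 60.0% of members (95% exact binomial interval 56.8 to 63.2%) overlapped a thresholded peak of replicate 1 and 73.8% (70.9 to 76.6%) one of replicate 2. For the other conservative peaks the shares were 56.5% and 69.4%. Both replicates had an overlapping peak at 52.4% of members and neither had one at 18.6%, against 47.6% and 21.7% of the others. These intervals cover counting error only, and peaks of 1 chain share a locus and are not independent, so no test was made of any share. An overlap can come from a neighbour's peak, as at the weak sbb member at 18344720, which had no replicate summit within 100 bp. In the ranked lists, a summit within 100 bp was found in replicate 1 for 831 of 946 members and 5365 of 5830 others. In replicate 2 the counts were 847 and 5420, so by this measure the share was lower for members in each replicate. Where both replicates had a summit within 100 bp, replicate 2 had the higher signal at 567 of 788 members, or 72.0%, and at 72.1% of the others. The chain median was higher in replicate 2 in 94 chains. The 2 lists may differ in scale and depth, so these counts do not compare occupancy between replicates.

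**Figure D3:**
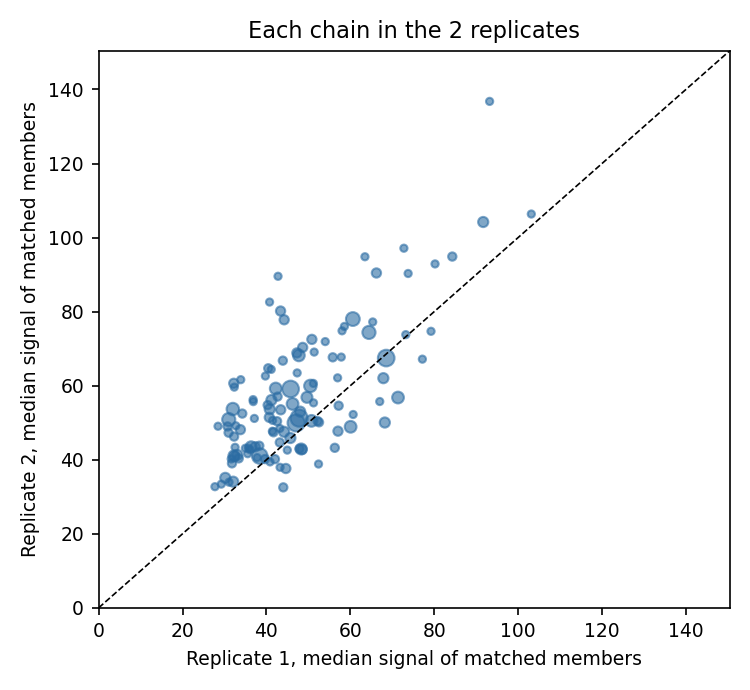
Median signal value of the matched members of each chain in replicate 1 (horizontal axis) and replicate 2 (vertical axis), 1 point per chain, larger for chains with more summits. The dashed line marks equal values, and 94 of the 119 chains lie above it.

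Most members lay in introns, and fewer lay close to a start site. Introns of protein-coding genes held 66.0% of members (62.8 to 69.0%), against 51.0% of the others and 46.2% of peaks with no neighbour. Within 1000 bp of a start site lay 34.2% of members (31.2 to 37.4%), against 53.2% and 55.7%. Exons held 9.51% of members and 17.2% of the others, and 24.5% and 31.8% lay outside protein-coding genes. The median distance to the nearest start site was 2177 bp for members, 812 bp for the others and 613 bp for peaks with no neighbour. By chain size, the share near a start site was 55.7% for single summits, 54.6% in chains of 2 to 3, 46.1% in chains of 4 to 5, 33.8% in chains of 6 to 7 and 34.7% in larger ones. The share was thus lower in the larger size classes, with the last 2 within each other's intervals. No summit was that near to a start in 24 chains, and in 49 every summit lay inside the lead gene.

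Along the gene body, cut into 5 equal stretches from its start, the first stretch held the highest share of both members and other peaks. The 648 members in genes of at least 5 kb fell 34.9% in the first stretch, 20.7% in the next, then 23.5%, 14.4% and 6.64%. For the other peaks the shares were 37.9%, 20.7%, 19.3%, 15.6% and 6.47%.

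E-boxes of the Snail and Scratch type were rare at members. The 9-base Scratch E-box CAACAGGTG was found within 50 bp of the summit at 4 members, or 0.423% (0.115 to 1.1%), against 0.943% of the others, 1.5% of peaks with no neighbour and 0.871% of all conservative peaks. The interval of members includes the share of all conservative peaks. In windows of the same size centred 300 bp to either side of the summit the Scratch E-box was found in 0.211% for members and 0.137% for the others. Within 1000 bp of a start site the summit shares were 0.926% of members and 1.06% of the others. Outside genes and farther away they were 0.602% and 0.635%. In introns farther away they were 0% and 0.65%, and in exons farther away, where only 13 members lay, 0% and 5.21%. With 4 such members in all, the member shares by place rest on very few peaks, and nothing is read from them. The 4 members with it lay in the chains of HmgD (signal 134), Atat (76.0), PAPLA1 (70.1) and bantam. That at PAPLA1 had 41.1 in replicate 1 and 32.8 in replicate 2, and that at Atat, 493 bp from the start site of MTF-1, had 51.3 and 33.0. The core CACCTG was found at 16 members, or 1.69% (0.97 to 2.73%), against 3.53% of the others, 4.35% of peaks with no neighbour and 3.28% of all. In the windows to either side the core was found in 3.22% for members and 3.52% for the others. Its share was lower for members near a start site (2.47% against 4.22%), in introns farther away (1.35% against 2.38%) and outside genes (0.602% against 2.79%). These member shares divide only 16 peaks.

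GAGAG, the sequence read by GAGA factor and Pipsqueak, was found on either strand at 22.5% of members (19.9 to 25.3%) and at 15.6% of their flanks. For the other peaks it was found at 19.1% of summits and 14.5% of flanks, and for all peaks at 19.6% of summits. Among members within 1000 bp of a start site the share was 29.9%, in introns farther away it was 21.4% and outside genes 10.8%. The corresponding shares of the other peaks were 22.3%, 15.0% and 15.6%. Runs of AAAAAA were found at 36.9% of members and 23.9% of their flanks, and at 31.4% of the other summits and 20.1% of their flanks. Both summit and flank shares were thus higher for members. TATAAA was found at 17.1% of members and 16.8% of the others, and AGGTCA, a nuclear receptor site, at 1.27% and 1.51%. The median GC content was 37.6% at member summits and 41.6% in their flanks, and 36.6% and 43.1% for the others. A match says only that these letters lie in the window.

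**Figure D4:**
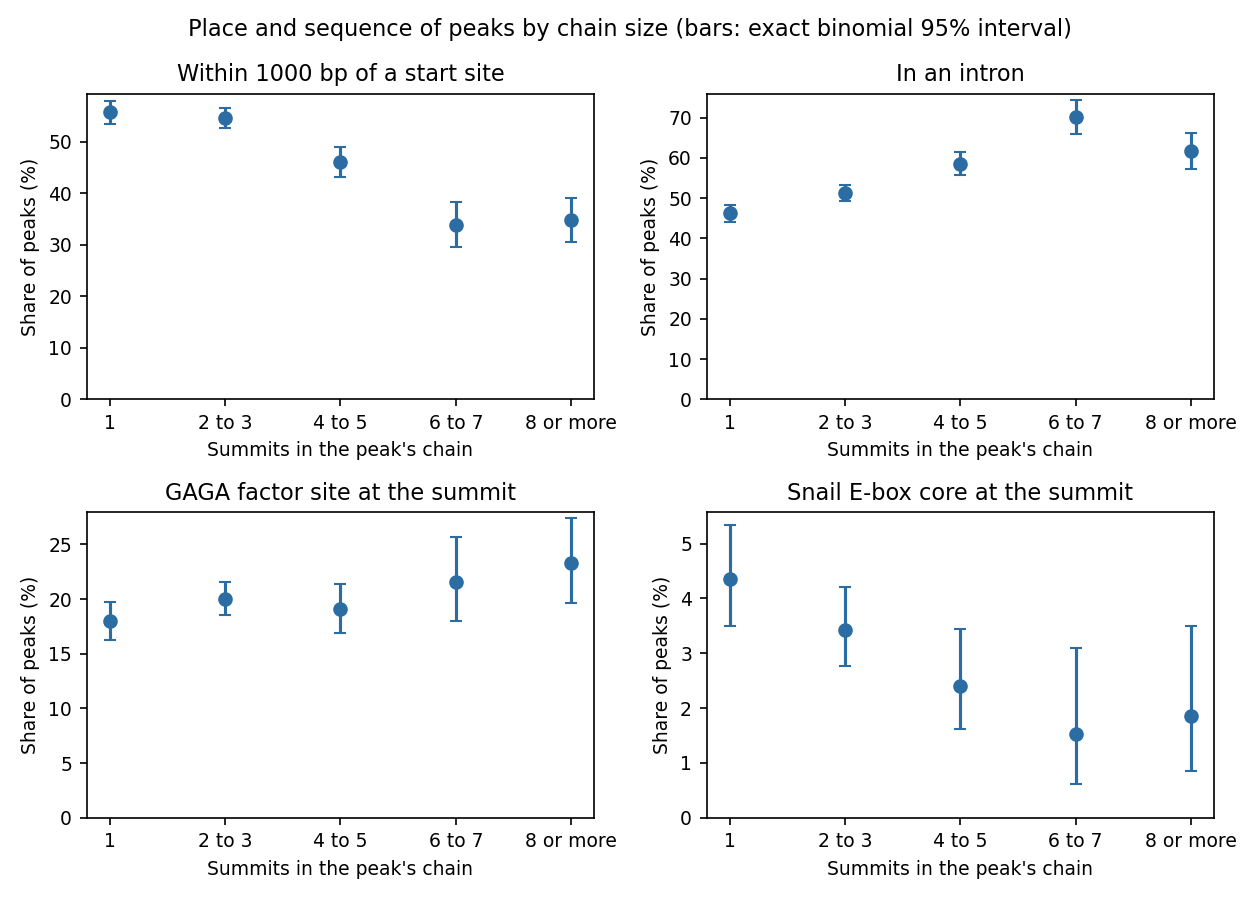
Share of peaks within 1000 bp of a start site, in an intron, with a GAGA factor site and with the Snail E-box core, for peaks in chains of 1, 2 to 3, 4 to 5, 6 to 7 and 8 or more summits. Points are shares and bars exact binomial 95% intervals, and the share near a start site goes from 55.7% for single summits to 34.7% in the largest chains.

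Lead genes were long in the median, and the genes under chains as a whole less so. Of 13945 protein-coding genes 200 overlapped the span of a chain, or 1.43%, and 104 were lead genes, or 0.746%. The median length of the 200 was 9.14 kb, with quartiles of 2.1 and 26.7 kb, that of lead genes 24.6 kb and that of all protein-coding genes 2.17 kb. Lead genes were chosen for holding summits, which favours long bodies. The share of genes overlapping a chain was 0.706% under 2 kb, 0.811% from 2 to 5 kb, 2.43% from 5 to 20 kb, 4.96% from 20 to 50 kb and 8.79% from 50 kb. Among all genes of 20 kb or more it was 6.12%. Gene length and gene identity cannot be told apart in these counts, so the gene lists are given with their median lengths.

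**Figure D5:**
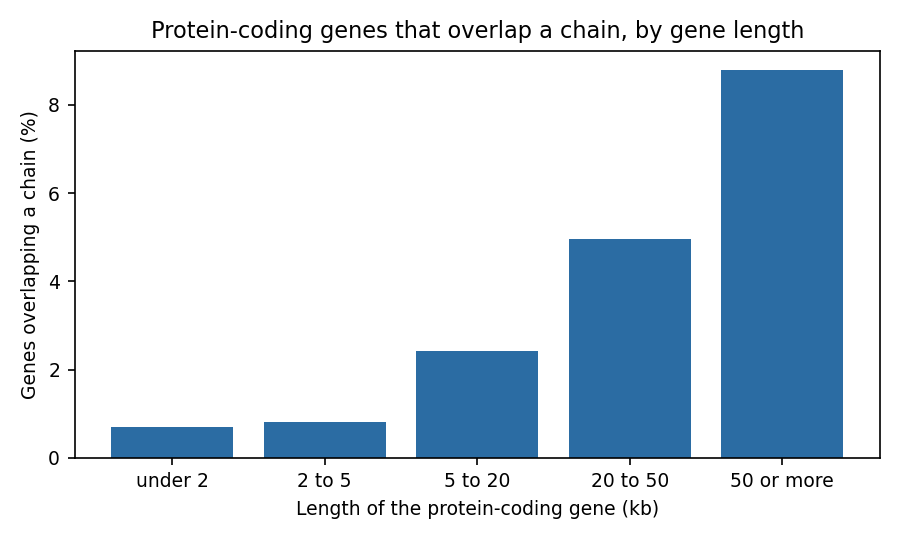
Share of protein-coding genes whose body overlaps a chain, by gene length in kb. The bars go from 0.706% of genes under 2 kb to 8.79% of genes of 50 kb or more.

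Ecdysone response genes were under chains in 4 of 24 cases, with a median list length of 32.2 kb. These were Eip75B with 13 member summits in its body, ftz-f1 with 12, the ETS factor gene Eip74EF with 8 and taiman (tai), a coactivator of the ecdysone receptor, with 7. All 4 belong to the list's 16 genes of 20 kb or more. No chain of these 4 genes was found in the lists of both replicates, and those of Eip74EF and tai were found in neither. With summits under 500 bp apart merged, the Eip74EF chain and 1 of the 2 ftz-f1 chains were lost. Of all protein-coding genes 1.43% were under chains, and of those of 20 kb or more 6.12%. BTB zinc finger genes and related factors were under chains in 4 of 15 cases, at a median length of 50.4 kb. They were psq with 11 summits, Trl, which encodes GAGA factor, with 7, lola with 6 and mamo with 3. Of that list's 12 genes of 20 kb or more 3 were under chains. The chains of psq and mamo were found in the lists of both replicates, that of lola only in replicate 2 and that of Trl in neither. The strongest peak at Trl had a signal of 654, with 344 in replicate 1 and 302 in replicate 2, and lay 1529 bp downstream of a start site. That of mamo had 544, with 196 in replicate 1 and 363 in replicate 2, and lay 112 bp upstream of one.

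Factors of neuroblasts, which are neural stem cells, and temporal factors were under chains in 5 of 27 cases, at a median length of 23.5 kb. They were Syp with 9 summits, Imp, brat and grh with 6 each, and mamo. All 5 belong to the list's 15 genes of 20 kb or more. Beside this stand 1.43% of all protein-coding genes and 6.12% of those of 20 kb or more. The chains of Syp and mamo were found in the lists of both replicates and that of Imp only in replicate 2. Those of brat and grh were found in neither, and both were lost when summits under 500 bp apart were merged. Syp and Imp encode RNA-binding proteins that mark late and early neuroblasts. The strongest peak at Syp had a signal of 509, with 212 in replicate 1 and 262 in replicate 2, and at Imp the strongest had 252. Syp and Imp also belong to the list of Elav family, splicing and RNA-binding regulators, of which 3 of 20 were under chains at a median length of 90.1 kb. The third was pum, a translational repressor gene, with 9 summits in a chain found in neither replicate's list. All 3 belong to that list's 17 genes of 20 kb or more.

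Growth and Hippo genes were under chains in 5 of 24 cases, at a median length of 6.1 kb. They were Myc and kibra with 6 summits each, E2f1 with 4, ex with 3 and foxo with 2. These 5 genes were longer than the list's median, from 17.5 kb (ex) to 40.6 kb (E2f1). Of the list's 6 genes of 20 kb or more 3 were under chains. The counts in this paragraph stand beside 1.43% of all protein-coding genes and 6.12% of those of 20 kb or more. The chain of ex was found in the lists of both replicates and that of E2f1 only in replicate 2. Those of Myc, kibra and foxo were found in neither, and that of kibra was lost when summits under 500 bp apart were merged. The strongest peak in the Myc chain had a signal of 346, and that in the foxo chain 521. In a list of signal receptors, ligands and some of their pathway factors 3 of 38 genes were under chains, at 14.4 kb. They were Egfr with 6 summits, the Hedgehog receptor ptc with 3 and, of the pathway factors, the ETS repressor aop with 2. Of adhesion and polarity genes 3 of 23 were, at 31.2 kb, namely scrib with 5, aPKC with 2 and the integrin gene mys with 2. Of the genes of 20 kb or more in these 2 lists, 2 of 15 and 1 of 13 were under chains. Of the Notch pathway 1 of 25 was, at 3.85 kb, namely mam with 7 summits, and of cell death genes 1 of 13, at 2.52 kb, namely Diap1. The mam chain was found in neither replicate's list and was lost when close summits were merged. That of Diap1 was found in both lists.

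In 2 lists with long genes none lay under a chain. Axon guidance and synaptic matching had 0 of 31, at a median length of 40.4 kb and with 23 of 20 kb or more. Hox and appendage factors had 0 of 28, at 20.2 kb and with 14 that long. Beside the 6.12% of all genes of that length, nothing is read from counts of 0 in lists of this size. Of those 2 lists 17 and 6 genes had a conservative summit within 1000 bp of a start site. None of the 6 Snail and Scratch family genes, at a median of 4.37 kb, lay under a chain, so CG12605 itself did not. Cuticle protein genes had 0 of 95 and chemosensory genes 0 of 230, at median lengths of 0.875 and 1.5 kb. Of 26 muscle genes, at a median of 8.85 kb, mys alone was spanned.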

How the data were processed

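Peak lists from ChIP-seq of 2 biological replicates were used, in 1 group. Per the deposited text, the authors mapped reads to dm6, called peaks relative to a control and applied IDR. Not given in the sources used here are the read aligner and the program that called peaks. Each peak carries a signal value deposited by the authors, whose scaling is not given, so signals were ranked within a list only, and replicates' signals were set side by side as deposited. The control alignment, read counts and depth were not analysed here, and the ranked lists of the whole series were not used.

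Summits of the conservative list were chained on X, 2L, 2R, 3L, 3R and 4 (gap limit 5000 bp, at least 6 summits). A replicate's signal is that of its ranked peak with a summit within 100 bp, and overlaps with its thresholded list needed 1 bp. Genes are those of Ensembl release 115, with positions counted from 1, and all 6776 peaks end within the arms of the Release 6 assembly. Motifs (12 in all) were searched on both strands, 50 bp either side of the summit. Python 3.11.15, numpy 2.4.6, scipy 1.17.1 and matplotlib 3.10.9 were used, and chaining and motif search were tested on simulated data. Intervals are exact binomial at 95%. No test between groups was possible.

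The members, the motifs and the 16 gene lists were chosen with earlier results of these data known. Of the list symbols 7 matched no annotated gene name (Eip71CD, Eip55E, Tkr, Dl, Unc-89, Tor and debcl) and were not analysed here. The result of 1 list is not reported here. Named were, by rule, the 20 chains with most summits, the lead gene of every other chain, up to 6 spanned genes of each list by summits, the 5 strongest members and the members with the Scratch E-box. The microRNA loci, heat shock and Enhancer of split chains and the second strongest peaks of some chains fall outside that rule and were chosen after their values were seen. Alternatives changed the gap limit, the number of summits, the peak list, the signal, the overlap, the start-site distance and the window.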

Additional observations from a re-analysis of the deposited data

How the results depend on the processing

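The number of chains depended on every limit of the rule. With a gap limit of 2500 bp there were 50 chains with 371 members, and with 10000 bp 252 with 2298. At least 5 summits gave 212 chains and at least 8 gave 46, with 484 members. Peaks with a signal at or above the median gave 18 chains with 128 members, of which 10 were among the 20 with most summits. The thresholded list of each replicate alone, the same lists as described above, gave 26 to 79 chains and 203 to 585 members. The series-level list gave 124 chains and merged close summits 84, within 1.5 times the reported number. Members overlapped in both replicates were 47.0% by summits within 100 bp and 46.1% when at least 1/2 of the peak had to be covered. The share near a start site was 23.9% within 500 bp and 48.0% within 2000 bp. The ratio of the median signal of members to that of others, 1.02, was 1.087 by the signals of replicate 1 and 1.079 by those of replicate 2. Those 2 ratios kept the same members but cover only peaks with a summit of that replicate within 100 bp. Most of the weaker peaks of close pairs had none, so many low members are left out of them. In windows of 100 bp either side GAGAG was found at 41.0% of members, the median GC was 39.8% and the share with the Scratch E-box was the same. Genes under chains were 1.23% of all with a start site in the span, 0.402% with a gap limit of 2500 bp and 0.66% with at least 8 summits. The cause of these shifts was not tested. No paired analysis was possible because there is a single group. Depth is unknown, and 2 replicates limit what their spread can show.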

Other observations

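Chains also lay close to each other. With chains at most 50 kb apart joined, 35 of the 119 chains fell into 15 groups. The longest group ran over 203 kb of 3L, from 602692 to 805848, with 4 chains from bantam to CG13898 and emc between them, which hold 49 of the 60 conservative summits there. On X, the chains of Mnt and Tlk formed a group of 4 over 114 kb, with 41 of 43 summits in chains. The BTB genes lola and psq, neighbours on 2R, had 24 summits over 38 kb, all of them in their 2 chains. Another group joined Trl with bmm, and one joined kibra with eff. Around CG6163, 3 chains with 25 summits lay within 63.1 kb of 3L, and all conservative summits of that stretch were in them. This joining limit was chosen after the data were seen, and no test was made.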
